A study of Mus musculus with 13 samples.

Results

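Solute carriers are membrane proteins that move amino acids, transmitters, sugars, ions, nucleotides and other small molecules into and out of cells and organelles. In brain they clear transmitter from the synapse, load synaptic vesicles, bring glucose across the blood-brain barrier and set the chloride gradient of neurons. The Slc25 family sits mostly in the inner mitochondrial membrane and carries nucleotides, fuels and cofactors between mitochondrion and cytosol. All probe sets annotated to 1 gene whose symbol begins with Slc and a digit were taken, other than those of Slc6a8 and Slc1a3, which were not used here. They were 183 of the 12422 gene probe sets on the array and stood for 150 genes, among 8251 genes with a probe set of their own. Of these, 113 probe sets for 100 genes were bright enough to be tested, among 7453 probe sets tested in all.

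RNA of mouse whole brain hemispheres was read on 13 Affymetrix MG-U74Av2 arrays. There were 3 arrays of R6/2 mice given the triple treatment, 4 of untreated R6/2 mice, 3 of wild type mice given the triple treatment and 3 of untreated wild type mice. R6/2 mice are a Huntington's disease model that expresses a short N-terminal piece of human huntingtin with an expanded CAG repeat, driven by the human promoter in neurons and other cells. The treatment joined tacrine, a cholinesterase inhibitor, at 2.7 mg/kg/day, moclobemide, an inhibitor of monoamine oxidase A, at 10 mg/kg/day, and creatine, the substrate of the phosphocreatine energy store, at 1% w/v in mash, with dosing listed from 5 weeks of age. The sample descriptions list these drugs for untreated samples too, so the treatment was taken from the titles. The description of treated R6/2 array 1 carries the lot number of untreated R6/2 array 4, while its title gives a number of its own, and the array was grouped by its title. A harvest age, 8 weeks, was given for 1 untreated wild type sample. Nothing in the labels says that the arrays of a group came from separate animals, so the p-values rest on array-to-array spread that may in part be technical.

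Values are signals, the deposited intensities on a linear scale, and differences are on the log2 scale with their standard error (SE). Median signal was 39.6 to 45.1 per array, and arrays of 1 group correlated at 0.915 to 0.974. Untreated R6/2 arrays 3 and 2 stood apart, scoring 45.7 and 25.4 on a first principal component that took 33.9% of the variance, so the counts and the passed genes are also given without them. The control rows of untreated R6/2 arrays 4, 2 and 3 were 1.2 times those of untreated R6/2 array 1, treated R6/2 array 1 and treated R6/2 array 3 in 66 of 66 rows. Of the gene rows of these pairs, only 0.507% to 0.716% were equal at that factor. The markers of neurons, astrocytes and oligodendrocytes were present (5 of 5, 5 of 5 and 4 of 4 genes above the filter), and the liver markers lay below it, at a summed signal of 17.8 to 46.8. In whole tissue, fewer cells of a type and less RNA per cell cannot be told apart.

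The first comparison asked what the R6/2 genotype did to the carriers in untreated mice. With limma and Benjamini-Hochberg adjustment over all 7453 probe sets, 12 of 113 solute carrier probe sets passed an adjusted p of 0.05, or 10.6%, beside 11.9% of all probe sets. Of the 12, 7 were higher in R6/2 mice (5.49% of all probe sets were) and 5 were lower (6.41% of all). The shares lay near the background, so as a group the carriers changed about as often as the other genes. Their median difference was 0.03, beside 0.04 over all probe sets. The genes that rose were Slc25a36, Slc35a1, Slc25a20, Slc12a2, Slc6a15, Slc25a51 and Slc1a4, and those that fell were Slc25a25, Slc1a2, Slc2a8, Slc9a3r1 and Slc6a9. Arrays of the groups did not overlap for 27 of 113 members (23.9%), beside 26.2% of all probe sets. Without untreated R6/2 arrays 2 and 3, 4 members passed, 3 of them higher and 1 lower: Slc25a36, Slc25a20 and Slc25a25 as before, and Slc7a9. Over all 7453 probe sets 163 then passed, against 887 with all arrays, and the members' median was 0.10, beside 0.05 over all. Without untreated wild type array 3 the same 3 mitochondrial carriers passed and the other 9 did not, and 220 of all probe sets passed.

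**Figure D1:**
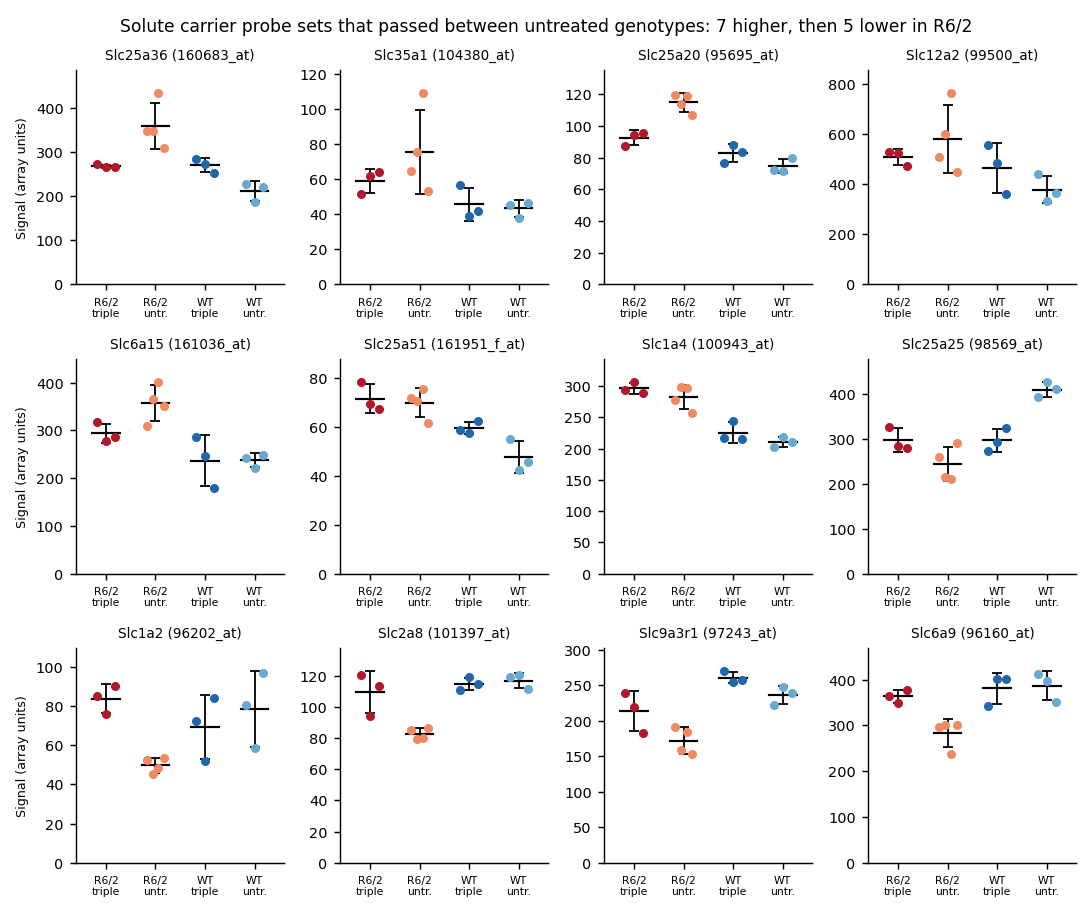
Signal (array units, axes from 0) of the 12 solute carrier probe sets that passed between untreated genotypes, with a point per array and the mean ± SD in black for R6/2 treated, R6/2 untreated, wild type treated and wild type untreated mice. Slc25a20 averaged 115 in untreated R6/2 and 74.5 in untreated wild type mice, and the untreated R6/2 arrays of Slc12a2 and Slc35a1 were the most spread.

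Mitochondrial carriers gave the smallest p-values. Slc25a36, which in human cells carries pyrimidine nucleotides into mitochondria, had signals of 348.3, 346.3, 433 and 309.6 in untreated R6/2 mice, against 227.3, 186.1 and 221.3 in untreated wild type mice. It rose by 0.76 ± 0.12 (SE, adjusted p = 0.0037). Slc25a20, the carnitine-acylcarnitine exchanger that admits fatty acids for oxidation, had signals of 119.7, 114, 118.5 and 106.7 in untreated R6/2 mice, against 72, 71.8 and 79.8 in untreated wild type mice, a rise of 0.62 ± 0.12 (adjusted p = 0.00701). For both genes every R6/2 array lay above every wild type array, and for Slc25a20 the gap between the groups was wider than the range within either. Slc25a25, a calcium-dependent carrier that exchanges ATP-Mg for phosphate, moved the other way. It had signals of 259.8, 215, 210.9 and 290.5 in untreated R6/2 mice, against 392.5, 426 and 410.9 in untreated wild type mice, and its difference was -0.76 ± 0.13 (adjusted p = 0.00441). Arrays 2 and 3 were the lowest of the 4 R6/2 arrays for Slc25a25, and array 3 was the highest for Slc25a36. Without these arrays the differences were 0.64 for Slc25a36 (adjusted p = 0.0163), 0.60 for Slc25a20 (adjusted p = 0.039) and -0.58 for Slc25a25 (adjusted p = 0.0275). These 3 genes also passed with any 1 of the 13 arrays left out, Slc25a36 at 0.67 to 0.83, Slc25a20 at 0.60 to 0.67 and Slc25a25 at -0.85 to -0.69.

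The promoters of these 3 genes, which have the smallest p-values of the family, are shown with that of Slc1a4, the member with the smallest p when both arms are averaged. They run from 250 bases before to 50 after the annotated start and come from RefSeq on GRCm38.p6, where 124 of the 150 genes had a promoter entry. Capitals mark matches, on either strand, to the cAMP response element TGACGTCA, the E-box CACGTG, the amino acid response element TTGCATCA and the CCAAT box (ATTGG on the other strand), motifs chosen after the letters had been seen. No matches overlap in these 4 promoters.
Slc25a36, chr9:97110992-97111291, minus strand: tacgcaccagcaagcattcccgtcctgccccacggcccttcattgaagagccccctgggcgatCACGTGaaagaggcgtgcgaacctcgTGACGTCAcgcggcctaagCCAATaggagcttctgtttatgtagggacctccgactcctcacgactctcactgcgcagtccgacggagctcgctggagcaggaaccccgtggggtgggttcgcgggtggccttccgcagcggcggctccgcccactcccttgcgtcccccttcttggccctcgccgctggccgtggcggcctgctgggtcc
Slc25a25, chr2:32424017-32424316, minus strand, 1 of 3 annotated starts: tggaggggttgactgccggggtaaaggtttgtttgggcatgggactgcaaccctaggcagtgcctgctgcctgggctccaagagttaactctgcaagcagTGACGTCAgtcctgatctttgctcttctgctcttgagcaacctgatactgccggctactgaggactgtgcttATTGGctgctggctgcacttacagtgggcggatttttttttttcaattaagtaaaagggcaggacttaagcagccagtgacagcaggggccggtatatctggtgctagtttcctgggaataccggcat
Slc25a20, chr9:108661886-108662185, plus strand: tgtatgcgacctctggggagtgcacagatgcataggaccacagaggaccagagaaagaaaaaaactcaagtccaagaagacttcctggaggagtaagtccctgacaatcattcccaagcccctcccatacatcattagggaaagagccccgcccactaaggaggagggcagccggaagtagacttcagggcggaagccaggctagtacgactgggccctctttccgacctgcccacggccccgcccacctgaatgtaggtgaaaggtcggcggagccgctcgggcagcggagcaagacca
Slc1a4, chr11:20332664-20332963, minus strand: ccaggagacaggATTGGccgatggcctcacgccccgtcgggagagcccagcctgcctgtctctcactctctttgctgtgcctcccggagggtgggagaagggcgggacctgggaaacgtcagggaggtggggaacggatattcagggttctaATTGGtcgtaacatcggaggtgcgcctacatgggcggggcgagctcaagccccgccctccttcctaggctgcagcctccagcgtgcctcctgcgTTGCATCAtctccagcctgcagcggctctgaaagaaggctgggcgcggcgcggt
The cAMP response element stood in 2 of 118 promoters of tested carriers, that of Slc25a36 (first base at -161 from the start) and 1 of those of Slc25a25 (-150), and in 1.79% of all 32851 promoters. The Slc25a36 promoter also held the E-box (7.15% of all promoters) and a CCAAT box (37.4% of all promoters), and the Slc25a20 promoter none of the 4 elements. The amino acid response element (0.895% of all promoters) lay at -4 in the Slc1a4 promoter. A match is a description of the letters and shows no binding.

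Slc25a51, the mitochondrial carrier of NAD, was read by 2 probe sets. On the dimmer, signals were 71.7, 70.4, 75.4 and 61.6 in untreated R6/2 mice, against 54.9, 42.3 and 45.5 in untreated wild type mice, a rise of 0.56 ± 0.14 (adjusted p = 0.0246). The groups did not overlap on this probe set, while on the brighter one they did, at a difference of 0.13 (adjusted p = 0.587). Slc25a4, the adenine nucleotide translocator of heart, muscle and brain and the brightest carrier of the class, averaged 2007 ± 253 (SD, n = 4) in untreated R6/2 and 1540 ± 53.7 (SD, n = 3) in untreated wild type mice, at 0.37 ± 0.12, which missed the threshold (adjusted p = 0.0583). Its relative Slc25a5 was at -0.01 and 0.18 on its probe sets (adjusted p = 0.983 and 0.42). Slc25a10, the dicarboxylate carrier, had the widest difference of the family, at -1.45 ± 0.48, with R6/2 signals of 42.1, 10.4, 7.9 and 30.8 against 46.6, 58.8 and 44.2 in wild type mice, and did not pass (adjusted p = 0.0627). It falls outside the rule for named genes and was chosen after its value was seen. Of 17 mitochondrial genes tested, each by its brightest probe set, 2 rose, 1 fell and 14 did not pass, at a class median of 0.01, or 0.17 without untreated R6/2 arrays 2 and 3.

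Of the amino acid carriers, 2 of 16 rose and none fell, at a class median of 0.17. Slc1a4, which exchanges serine, alanine and other neutral amino acids, had signals of 277.6, 298.8, 296.3 and 257.5 in untreated R6/2 mice, against 202.2, 217.8 and 210.4 in untreated wild type mice. It rose by 0.43 ± 0.10 (adjusted p = 0.0213), with a tight spread in both groups. Slc6a15, a neuronal carrier of branched-chain amino acids and proline, had signals of 309.9, 365.2, 401.3 and 351.2 in untreated R6/2 mice, against 243, 222.2 and 249.5 in untreated wild type mice, a rise of 0.58 ± 0.15 (adjusted p = 0.0249). Slc38a2, a glutamine and alanine carrier, was at 0.51 ± 0.19 (adjusted p = 0.0903), with R6/2 arrays 2 and 3 at 401.1 and 393.9 and the other R6/2 arrays at 255.2 and 279.2, overlapping the wild type arrays. The large neutral amino acid exchanger is built from Slc3a2, its heavy chain and the brightest gene of the class, and Slc7a5, its light chain. They were at -0.29 (adjusted p = 0.291) and -0.26 (adjusted p = 0.174), and the taurine carrier Slc6a6 was at -0.08 on its brighter probe set (adjusted p = 0.638) and at -0.26 on the other (adjusted p = 0.622). Without untreated R6/2 arrays 2 and 3, Slc1a4 was at 0.35 (adjusted p = 0.109) and Slc6a15 at 0.47 (adjusted p = 0.151). Slc7a9, the light chain of a cystine carrier best known from kidney, was at 0.93 with all arrays (adjusted p = 0.131) and at 1.64 without them (adjusted p = 0.0295), since arrays 2 and 3 read 16.3 and 13.5 where arrays 1 and 4 read 48.5 and 32.2.

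Among transmitter carriers 2 of 8 fell and none rose, at a class median of 0.09. Slc6a9, the glycine transporter of glia, had signals of 296.5, 300.1, 237 and 300.5 in untreated R6/2 mice, against 412.7, 396.6 and 351.3 in untreated wild type mice, a difference of -0.45 ± 0.12 (adjusted p = 0.0278). Slc1a2, the main glutamate transporter of astrocytes, had signals of 52.5, 45.3, 48.3 and 53.4 in untreated R6/2 mice, against 80.5, 58.5 and 97.1 in untreated wild type mice, at -0.63 ± 0.19 (adjusted p = 0.0475). The R6/2 arrays of Slc1a2 lay close together and the wild type arrays were wide, the lowest of them near the highest R6/2 array. Slc32a1, which loads GABA and glycine into vesicles and was the brightest transmitter carrier, averaged 790 ± 118 (SD, n = 4) in untreated R6/2 and 1124 ± 146 (SD, n = 3) in untreated wild type mice, without overlap, and missed the threshold at -0.51 ± 0.16 (adjusted p = 0.0514). The neuronal glutamate transporter Slc1a1 was at 0.04 (adjusted p = 0.878), the noradrenaline transporter Slc6a2 at 0.87 (adjusted p = 0.127) and the serotonin transporter Slc6a4 at 0.31 (adjusted p = 0.432). Without untreated R6/2 arrays 2 and 3, Slc6a9 was at -0.37 (adjusted p = 0.104) and Slc1a2 at -0.54 (adjusted p = 0.236). Of the markers of astrocytes, 1 of 5 fell in this comparison (Aldoc, -0.44, adjusted p = 0.0423), with Aqp4 at -0.24, Gja1 at 0.22, Gfap at 0.23 and S100b at 0.18. The list median was 0.18, and the list summed to a signal of 2489 to 3072 in untreated R6/2 mice, against 3055 to 3087 in untreated wild type mice. Of the neuron markers 2 of 5 fell, with sums of 4978 to 6076 in untreated R6/2 and 6271 to 6671 in untreated wild type mice. Of the oligodendrocyte markers 3 of 4 fell, with sums of 1883 to 2417 in untreated R6/2 and 3219 to 3727 in untreated wild type mice. Of the red blood cell markers 1 of 3 fell (Alas2, -1.52, adjusted p = 0.0302), with sums of 904 to 1872 in untreated R6/2 and 1979 to 3525 in untreated wild type mice. None of 6 endothelium markers passed, at a list median of 0.44 and sums of 306 to 374 in untreated R6/2 and 286 to 319 in untreated wild type mice. None of 3 choroid plexus markers passed, at a median of 0.33. Their sums were 539 to 957.2 in untreated R6/2 and 479.9 to 733.5 in untreated wild type mice. None of 4 microglia markers passed, at a median of -0.23. With untreated R6/2 arrays 2 and 3 left out, 1 oligodendrocyte marker passed and none of the other markers did. The part of these markers in the carrier differences was not tested.

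Among sugar carriers 1 of 5 fell, none rose and 4 did not pass, at a class median of -0.50. Slc2a8, a glucose transporter held on internal membranes, had signals of 85.4, 79.3, 80.3 and 86.5 in untreated R6/2 mice, against 119.5, 120.6 and 111.8 in untreated wild type mice. It fell by 0.50 on the log2 scale (SE 0.12, adjusted p = 0.0193), and all 4 R6/2 arrays lay well below the wild type arrays. Slc2a1, the glucose transporter of the blood-brain barrier, averaged 120 ± 36.1 (SD, n = 4) in untreated R6/2 and 180 ± 3.62 (SD, n = 3) in untreated wild type mice, without overlap, at -0.64 ± 0.23 (adjusted p = 0.0815). Slc2a3, the glucose transporter of neurons, was at 0.09 (adjusted p = 0.697) on its brighter probe set and at -0.65 (adjusted p = 0.0788) on the other, which disagree in sign. Slc37a4, the glucose-6-phosphate carrier of the endoplasmic reticulum, was at -0.63 ± 0.22 (adjusted p = 0.0784), and falls outside the rule for named genes. Slc50a1, a sugar carrier and the brightest of the class, was at 0.03 (adjusted p = 0.884). Without untreated R6/2 arrays 2 and 3 the class median was -0.41 and Slc2a8 was at -0.45 (adjusted p = 0.0984).

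Ion carriers showed 1 rise among 23 genes, no fall and a class median of 0.00, or 0.10 without untreated R6/2 arrays 2 and 3. Slc12a2, the sodium-potassium-chloride cotransporter that brings chloride into cells, had signals of 508.4, 599.6, 764.5 and 450.9 in untreated R6/2 mice, against 439.7, 333.4 and 364.8 in untreated wild type mice. It rose by 0.60 ± 0.18 (adjusted p = 0.0472), with array 3 far above the other R6/2 arrays and array 4 just above the highest wild type array. Its counterpart Slc12a5, which takes chloride out of neurons, had signals of 117.3, 70.5, 51.2 and 136.3 in untreated R6/2 mice, against 141, 130.5 and 141.1 in untreated wild type mice, at -0.66 ± 0.33 (adjusted p = 0.191). Here arrays 2 and 3 were low and arrays 1 and 4 lay close to wild type. Without arrays 2 and 3, Slc12a2 was at 0.35 (adjusted p = 0.296) and Slc12a5 at -0.12 (adjusted p = 0.859). The sodium-calcium exchanger Slc8a1 was at 0.41 (adjusted p = 0.113), the sodium bicarbonate cotransporter Slc4a4 at -0.40 (adjusted p = 0.178), and Slc30a3, which loads zinc into synaptic vesicles and was the brightest ion carrier, at -0.29 (adjusted p = 0.215). Some genes of the pumps that build the gradients many carriers run on were read as well. Of 9 listed sodium-potassium pump genes 5 had a probe set of their own, and none of these was a catalytic alpha subunit. The subunit Atp1b2 fell, at -1.25 ± 0.34 (adjusted p = 0.0341), and so did the regulator Fxyd7, at -1.19 ± 0.29 (adjusted p = 0.022). Atp1b1 at -0.38, Fxyd1 at -0.20 and Atp1b3 at 0.25 did not pass. Of 14 vacuolar proton pump genes 1 fell, Atp6v0a1 at -0.94 ± 0.29 (adjusted p = 0.0475). None of the 3 pump genes that fell passed without untreated R6/2 arrays 2 and 3.

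Of the 28 remaining carriers, 1 rose and 27 did not pass, at a median of 0.04. Slc35a1, which carries CMP-sialic acid into the Golgi apparatus, had signals of 64.8, 75.3, 109.1 and 53.5 in untreated R6/2 mice, against 45.4, 38 and 46.7 in untreated wild type mice, a rise of 0.76 ± 0.22 (adjusted p = 0.041). Array 3 again stood highest, and without arrays 2 and 3 the difference was 0.45 (adjusted p = 0.269). Slc29a1, a nucleoside transporter, was at 0.89 ± 0.28 (adjusted p = 0.0533) on one probe set and at -0.40 (adjusted p = 0.463) on the brighter one. Slc22a17, an organic cation family member abundant in brain and the brightest of these, was at -0.28 (adjusted p = 0.218). Of 3 genes that carry an Slc symbol without being carriers, 1 fell: Slc9a3r1, a scaffold that anchors transporters under the membrane, had signals of 191.8, 158.3, 184.3 and 152.8 in untreated R6/2 mice, against 222.6, 247.6 and 238.7 in untreated wild type mice, at -0.47 ± 0.12 (adjusted p = 0.0302). Its groups did not overlap, and without arrays 2 and 3 it kept its size at -0.46 but not the call (adjusted p = 0.0981). Of 13 genes with several probe sets above the filter, 8 had probe sets of opposite sign in this comparison.

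**Figure D2:**
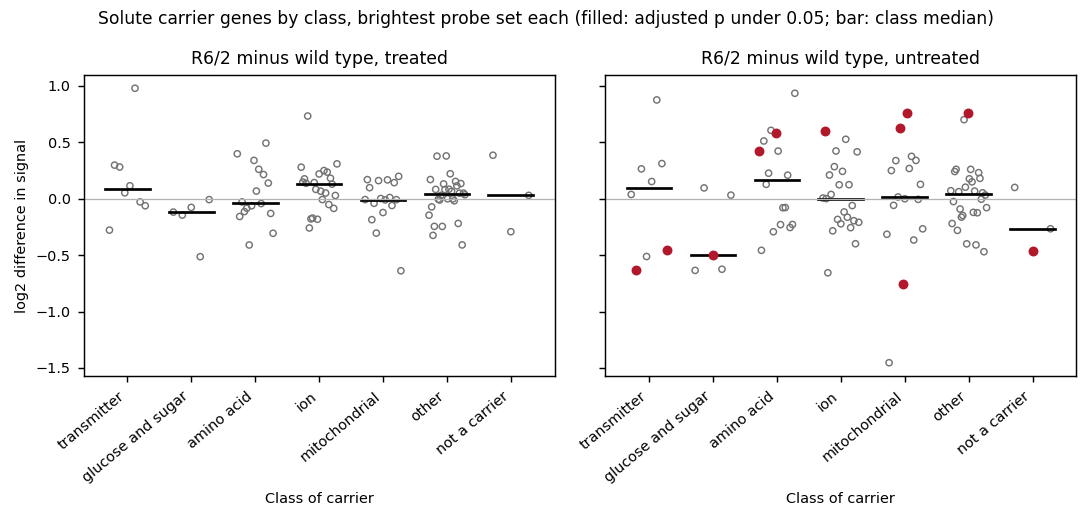
Difference on the log2 scale, R6/2 minus wild type, of the 100 tested genes by class in treated and in untreated mice, each gene by its brightest probe set, with filled points for an adjusted p under 0.05 and a bar at the class median. Passed genes stand in the untreated panel only, with sugar carriers at a median of -0.50 there and -0.12 in treated mice.

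**Figure D3:**
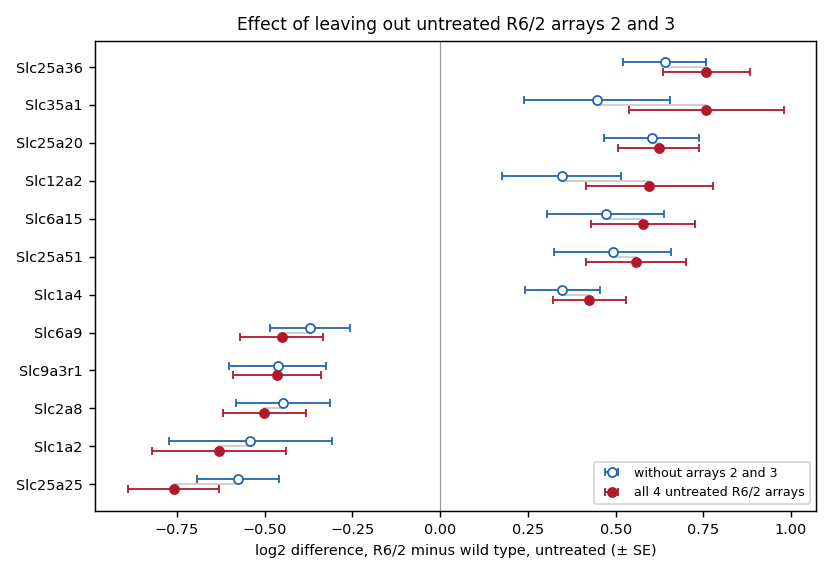
Difference between untreated R6/2 and wild type mice on the log2 scale (± SE) of the 12 passed probe sets, without untreated R6/2 arrays 2 and 3 (open) and with all 4 arrays (filled). All 12 kept their sign, and Slc12a2 moved to 0.35 from the 0.60 of all arrays.

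The genotype comparison in treated mice used other arrays for both groups and shared only the estimate of spread. None of 113 solute carrier probe sets passed, beside 0.792% of all probe sets, and 8 had an unadjusted p under 0.05 (9.19% of all probe sets did). Groups did not overlap for 17 of 113 members, beside 16.8% of all. Slc1a4 came nearest, with signals of 294.1, 306.3 and 288.6 in treated R6/2 mice, against 216.2, 244.6 and 215.5 in treated wild type mice, at 0.40 ± 0.11 (adjusted p = 0.149). Its difference was about that of untreated mice, and the groups again did not overlap. Of the 12 probe sets that passed in untreated mice, 9 differed in that direction with treatment as well, and 3 had groups without overlap there: Slc1a4, Slc25a51 at 0.26 (adjusted p = 0.693) and Slc9a3r1 at -0.29 (adjusted p = 0.528). The matching shares of all 887 probe sets that passed in untreated mice are not given here. Slc25a36 hardly differed, at 271.8, 265.1 and 265.2 in treated R6/2 mice and 283.2, 273.1 and 253 in treated wild type mice (-0.01 ± 0.13, adjusted p = 0.993). Slc25a25 hardly differed either, at 327.5, 283.8 and 278.9 in treated R6/2 mice and 272.4, 293 and 324.4 in treated wild type mice (0.00 ± 0.14). The third mitochondrial gene, Slc25a20, had 87.2, 94.5 and 95.7 in treated R6/2 mice and 76.8, 88.1 and 83.7 in treated wild type mice, at 0.16 ± 0.12 (adjusted p = 0.819), with overlapping groups. Slc1a2 had the opposite sign, at 0.30 ± 0.21 (adjusted p = 0.788). The remaining genes with the smallest p-values were the cationic amino acid carrier Slc7a3 at 0.49, Slc6a2 at 0.98, the sodium-proton exchanger Slc9a8 at 0.31 and the potassium-chloride cotransporter Slc12a7 at 0.73, with adjusted p of 0.38 to 0.504.

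**Figure D4:**
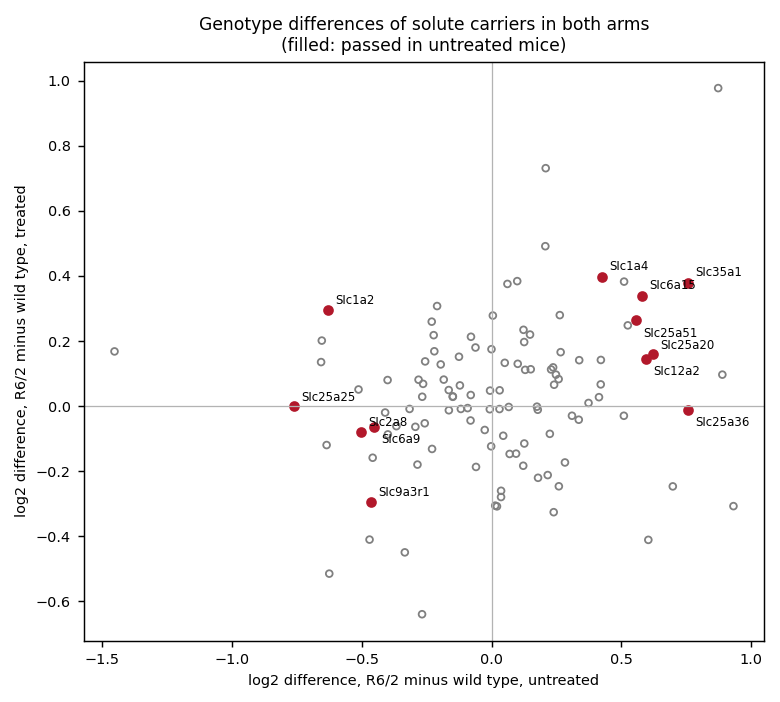
Difference between R6/2 and wild type on the log2 scale for the 113 tested probe sets, in treated mice (vertical) against untreated mice (horizontal), filled where the probe set passed in untreated mice. Slc1a4 lies near equal values at 0.40 and 0.43, while Slc25a36 and Slc25a25 lie at -0.01 and 0.00 in treated mice.

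Averaged over both arms, 8 of 113 members passed between genotypes (7.08%), beside 6.61% of all probe sets. Of these 6 were higher in R6/2 mice (2.58% of all probe sets were) and 2 lower (4.04% of all). All 8 had also passed in untreated mice, whose arrays enter the average, so the overlap is not a second test. Slc1a4 had the smallest p, at 0.41 ± 0.08 (adjusted p = 0.00503), followed by Slc25a20 at 0.39 ± 0.09 (adjusted p = 0.0138), Slc6a15 at 0.46 ± 0.11 (adjusted p = 0.0211) and Slc9a3r1 at -0.38 ± 0.09 (adjusted p = 0.0226). Slc25a36 was at 0.37, Slc25a25 at -0.38, Slc25a51 at 0.41 and Slc35a1 at 0.57, with adjusted p of 0.025 to 0.0494. Slc25a36 and Slc25a25 hardly differed in treated mice, so their averaged differences come from the untreated arm. Slc1a4 and Slc25a20 passed with any 1 of the 13 arrays left out, at 0.40 to 0.44 and 0.36 to 0.42. Without untreated R6/2 arrays 2 and 3, 4 members passed, Slc1a4, Slc25a20, Slc9a3r1 and Slc25a36, beside 423 of all 7453 probe sets, against 493 with all arrays.

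The treatment was compared with no treatment in R6/2 mice, against the untreated R6/2 arrays that also enter the untreated genotype comparison, so the values are set side by side only. No member and 0% of all probe sets passed, and 17 members had an unadjusted p under 0.05, beside 16.9% of all probe sets. Groups did not overlap for 12 members (10.6%), beside 10.6% of all. Slc1a2 had the smallest p, with signals of 85.4, 75.9 and 90.6 in treated R6/2 mice, against 52.5, 45.3, 48.3 and 53.4 in untreated R6/2 mice, at 0.75 ± 0.19 (adjusted p = 0.246). The groups were far apart, and the treated R6/2 arrays lay in the range of the untreated wild type arrays. Slc9a8 had signals of 178.6, 158.1 and 175 in treated R6/2 mice, against 129.7, 123.6, 107.7 and 137.3 in untreated R6/2 mice, at 0.46 ± 0.12 (adjusted p = 0.246). Slc2a8 averaged 110 ± 13.5 (SD, n = 3) in treated and 82.9 ± 3.6 (SD, n = 4) in untreated R6/2 mice, at 0.40 ± 0.12 (adjusted p = 0.247). Slc6a9 averaged 364 ± 14.4 (SD, n = 3) in treated and 284 ± 31.1 (SD, n = 4) in untreated R6/2 mice, at 0.37 ± 0.12, and Slc25a36 was at -0.42 ± 0.12 (both adjusted p = 0.247). For each of these 5 genes the groups did not overlap. Without untreated R6/2 arrays 2 and 3 the differences were 0.66, 0.35, 0.35, 0.29 and -0.30 for Slc1a2, Slc9a8, Slc2a8, Slc6a9 and Slc25a36, and every adjusted p was 1.00.

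Treated and untreated wild type mice gave no passed member either, with 0% of all probe sets passed and 13 members at an unadjusted p under 0.05, beside 10.3% of all. Groups did not overlap for 25 members (22.1%), beside 21.8% of all. Slc7a9 had signals of 43.8, 45.7 and 54.1 in treated wild type mice, against 8.3, 20 and 12.3 in untreated wild type mice, at 1.91 ± 0.43 (adjusted p = 0.254). The groups were wide apart, but both were dim. It passed without untreated R6/2 arrays 2 and 3, where its SE was 0.31 (adjusted p = 0.0454) and 8 of all 7453 probe sets passed. Slc25a25 averaged 297 ± 26.2 (SD, n = 3) in treated and 410 ± 16.8 (SD, n = 3) in untreated wild type mice, without overlap, at -0.47 ± 0.14 (adjusted p = 0.318). Slc32a1 averaged 795 ± 127 (SD, n = 3) in treated and 1124 ± 146 (SD, n = 3) in untreated wild type mice, at -0.51 ± 0.17 (adjusted p = 0.346). The dimmer probe set of Slc29a1 was at 0.90 ± 0.30 (adjusted p = 0.333) and the brighter at -0.67 (adjusted p = 0.553). Slc15a2, a carrier of small peptides, was at -0.44 ± 0.16 (adjusted p = 0.369).

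**Figure D5:**
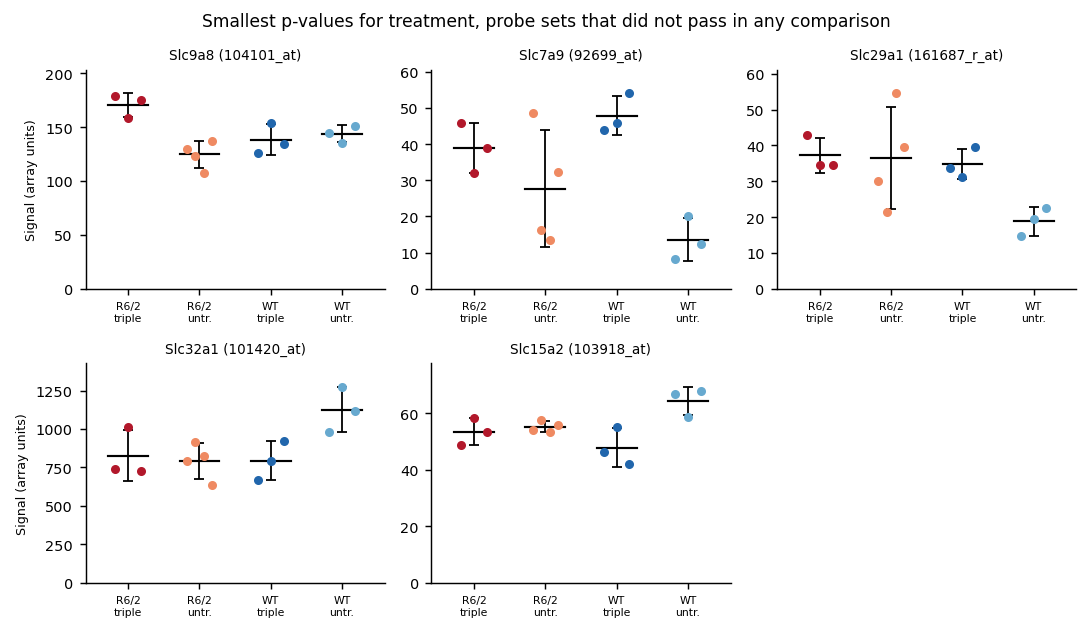
Signal (array units, axes from 0) for R6/2 treated, R6/2 untreated, wild type treated and wild type untreated mice, a point per array with the mean ± SD in black. Shown are 5 probe sets, from the 5 genes with the smallest treatment p in R6/2 mice and the 5 in wild type mice. Those that passed between untreated genotypes were left out, and the treatment averaged over genotypes was not used for the choice. Slc7a9 lies between 43.8 and 54.1 in treated wild type mice and between 8.3 and 20 in untreated wild type mice.

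The test of whether the treatment acted differently by genotype passed for no member and for 0% of all probe sets, with 13 members at an unadjusted p under 0.05, beside 13.5% of all. The smallest p-values were those of Slc25a36 at -0.77 ± 0.18, Slc25a25 at 0.76 ± 0.19 and Slc1a2 at 0.93 ± 0.28, each with an adjusted p of 0.305. Slc25a36 was lower with treatment in R6/2 mice, at -0.42, and higher in wild type mice, at 0.35, while Slc25a25 was at 0.29 in R6/2 and at -0.47 in wild type mice. The 4 group means of Slc25a25 were 297 ± 26.8 in treated R6/2, 244 ± 38.1 in untreated R6/2, 297 ± 26.2 in treated wild type and 410 ± 16.8 in untreated wild type mice (SD, n = 3, 4, 3 and 3). Its treated groups were thus alike and the untreated ones lay on either side of them. Slc1a4 differed with treatment by 0.07 in R6/2 and by 0.10 in wild type mice. Averaged over genotypes, treatment passed for no member and for 0% of all probe sets, and 13 members had an unadjusted p under 0.05, beside 12.6% of all. The smallest p-values belonged to Slc7a9 at 1.29 (adjusted p = 0.22), the mitochondrial carrier Slc25a14 at -0.56 (adjusted p = 0.261) and the copper importer Slc31a1 at -0.49 on its dimmer probe set (adjusted p = 0.262), followed by Slc9a3r1 at 0.23 (adjusted p = 0.33) and the iron carrier Slc11a2 at 0.34 on its dimmer probe set (adjusted p = 0.338).

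The filter lay at a mean signal of 24.9, with Slc38a4 at 25.0 and Slc39a4 at 25.5 just inside, and Slc27a1 at 24.3 and Slc25a47 at 22.8 just outside. Below it were 50 genes, 3 of them transmitter, 4 sugar, 5 amino acid, 13 ion, 3 mitochondrial and 22 other carriers. They included the phosphate carrier Slc25a3, the lactate carrier Slc16a1, the vesicular acetylcholine transporter Slc18a3, the dopamine transporter Slc6a3 and the cystine-glutamate exchanger Slc7a11. The vesicular glutamate transporters Slc17a7 and Slc17a6, the vesicular monoamine transporter Slc18a2, the choline transporter Slc5a7 and the aspartate-glutamate carrier Slc25a12 had no probe set of their own in the annotation and were not analysed here.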

How the data were processed

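RNA of mouse brain hemispheres was read on 13 arrays, grouped by the genotype and treatment in their titles. The authors deposited linear intensities scaled to a common level: the mean of each array, trimmed by 2% on both sides, came to 100.05 to 100.13. The software that made them is not given in the sources used here. Array medians lay within 10% of their mean, so values were used without further normalization. Signals below the 10th percentile, 3.1, were raised to it before taking log2. The file held 12488 probe sets, 66 of them controls that were not tested. The 7453 at or above the 40th percentile of mean log2, a signal of 24.9, entered the tests. Genes came from the platform's annotation table, with 10833 probe sets on 1 gene, 396 on several and 1193 on none, and promoters from RefSeq (GRCm38.p6).

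A mean per group was fitted to all 13 arrays with limma 3.58.1 in R 4.3.3 (eBayes with an intensity trend), two-sided, with Benjamini-Hochberg adjustment over the kept probe sets and a threshold of 0.05. The fit was tested on simulated data. The array gives no read depth, so the number of arrays limits the precision. Genes were classed by carrier family, each shown by its brightest probe set. Named genes are the members passed per comparison (the 5 with the smallest p where fewer than 5 passed), a list of known brain carriers and the brightest gene of each class. Slc25a10 and Slc37a4 were named outside this rule, as were members near or below the filter, flagged, or passed only in an alternative. The members, classes and lists were chosen with earlier results of these data known. Alternatives were quantile normalization, scaling to 1 median, a floor of 10, no filter, array weights, only the groups compared, each array left out, untreated R6/2 arrays 2 and 3 left out, and the mean of a gene's probe sets.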

Additional observations from a re-analysis of the deposited data

Results flagged for a closer look

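Within the 4 untreated R6/2 arrays, 3 of 46 probe sets of named genes held an array far from the others, where chance alone flags about 1 in 20 groups. The iron carrier Slc11a2 read 146.3 in array 1 and 102.9 to 105.8 in the other arrays on its brighter probe set. The serotonin transporter Slc6a4 read 52.4 in array 4 and 31.3 to 33.6 in the others. The glycine transporter Slc6a9 read 237 in array 3 and 296.5 to 300.5 in the others. Its genotype difference in untreated mice no longer passed the threshold without array 3, and also not without untreated wild type array 1, 2 or 3.

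For 2 genes an effect ran in opposite directions in 2 strata with no overlap in either. The share of all probe sets that did so is not given here. In single comparisons, groups did not overlap for 10.6% to 26.2% of all probe sets. The pyrimidine nucleotide carrier Slc25a36 was lower with treatment in all R6/2 arrays, at -0.42, and higher in all wild type arrays, at 0.35. Its interaction was -0.77 ± 0.18 (SE, adjusted p = 0.305). The zinc carrier Slc30a4 was lower in all R6/2 than in all wild type arrays of treated mice, at -0.17, and higher in untreated mice, at 0.28. In untreated mice the lowest R6/2 array, 192.3, barely cleared the highest wild type array, 191.8. Its interaction was -0.46 ± 0.22 (SE, adjusted p = 0.388). Neither passed the test of the interaction.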

How the results depend on the processing

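The genotype count of untreated mice, 12, ran from 3 to 19 with 1 array left out, while the count over all probe sets ran from 157 to 1308, reaching 4, 4 and 3 without untreated wild type array 1, 2 or 3, 5 and 6 without untreated R6/2 array 2 or 3, and 19 without untreated R6/2 array 1. It was 4 without untreated R6/2 arrays 2 and 3 (163 of all probe sets) and 4 in a fit of only the groups compared (243 of all). Scaling to 1 median changed the split over all probe sets to 241 higher and 550 lower, against 409 and 478 as reported. Slc35a1 did not pass after quantile normalization, after scaling to 1 median or without the filter. Slc12a2 did not pass after scaling or without the filter, nor did Slc1a2 and Slc6a15 without the filter. Slc35a1, Slc12a2 and Slc1a2 were among those lost in the fit of only the groups compared. With 1 array left out, Slc12a2 passed in 4 of 13 fits, Slc1a2 in 5, Slc35a1 in 7 and Slc6a15 in 8. Slc12a2, Slc1a2 and Slc35a1 were also lost in fits without a treated array, which enters only the estimate of spread. In treated mice the genotype count was 0 to 0 with 1 array left out. Without the filter on dim probe sets it was 1 (Slc1a4, adjusted p = 0.0402), beside 70 of all 12422 probe sets. For treatment it was 0 to 1 in R6/2 mice, 1 being Slc39a7 without untreated R6/2 array 1 (116 of all probe sets). In wild type mice it was 0 to 0 with 1 array left out and 2 with array weights (Slc7a9 and Slc25a25, beside 120 of all). Without untreated R6/2 arrays 2 and 3 it was 1 (8 of all). The interaction count was 0 to 0, and that of treatment averaged over genotypes was 0 to 1. The latter was 1 without untreated R6/2 array 1, where 43 of all probe sets passed. The averaged genotype count, 8, ran from 2 to 9 (263 to 704 of all probe sets), at 2 and 4 without untreated wild type array 2 or 3, 4 and 5 without treated wild type array 2 or 3, 5 without untreated R6/2 array 2, and 4 and 3 without treated R6/2 array 1 or 3. It was 14 with array weights (932 of all), 4 without untreated R6/2 arrays 2 and 3 (423 of all), and, by gene, 11 on the mean of a gene's probe sets against 7 on the brightest. Where no cause is given it was not tested. No call changed direction, while medians of the members near 0 did: that of treatment in R6/2 mice was 0.04 and that of the interaction 0.03 with all arrays, against -0.01 and -0.06 without untreated R6/2 arrays 2 and 3, and that of treatment in wild type mice was 0.02 as deposited and -0.03 after scaling. Over the probe sets of named genes with 1 array left out, 2697 values kept direction and call, 82 lost the call and 12 gained it. The other 147 changed direction and were not called in either fit. No paired analysis was possible because the numbers in the titles differ in every sample and pair nothing.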
